A study of Ovis aries with 8 samples.

Results

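The genes described here encode the proteins of blood clotting, of its inhibition and of clot dissolution, together with the serpins, the protein family that holds many of their inhibitors. They were taken by gene symbol from a table of 27057 rows. The rule was a symbol that begins with SERPIN, a clade letter and a number, or 1 of 28 named clotting and fibrinolysis genes. It gave 55 genes, 28 serpins and 27 others. No row of the table as used here carried the symbol PLG, so plasminogen was not analysed here.

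The liver makes most clotting proteins and sheds them into plasma as inactive precursors. Tissue factor starts the cascade on a cell surface, a chain of proteases ends in thrombin, and thrombin turns fibrinogen into fibrin, which plasmin later dissolves. Serpins act as suicide substrates that trap such proteases, and some members of the family carry hormones or fold other proteins instead.

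The 8 libraries hold polyadenylated RNA of fetal sheep hepatocytes in culture. Each of 4 cell preparations gave 1 basal and 1 metformin library. Metformin, an antidiabetic biguanide, was applied for 24 h. The sources used here give no dose, no vehicle for the basal cultures, no fetal age and no count of animals per preparation. Values are FPKM (fragments per kilobase of transcript, scaled to the mapped fragments of the library), as the authors deposited them, and the read depth is unknown. Between 12733 and 13293 genes of a library had at least 1 FPKM.

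Markers of hepatocytes were abundant, and markers of other liver cells were present too. All 15 hepatocyte markers listed were measured. With metformin 12 of them fell and 1 rose, against 24.1% and 19.8% of all genes tested. The summed FPKM of 14 of them (AHSG held a placeholder in some libraries and was left out) was 22734, 20350.3, 13232 and 13595 in basal preparations 1 to 4. It was 15557, 13995, 7697 and 8126 with metformin. Macrophage markers summed to 1371 to 2809 FPKM in basal libraries, markers of stellate cells and fibroblasts to 4943 to 7200.4 and endothelial markers to 154 to 543, and none of the genes of these lists was at 0 in all libraries. In bulk RNA, fewer cells of a type and less RNA per cell cannot be told apart.

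Of the 55 genes, 45 reached 1 FPKM in 4 or more libraries and were tested. Of these, 43 reached that level in all 8 libraries, while F8 and F13A1 reached it in 7. The other 10 were serpins whose highest value in any library was 0.637 FPKM, and 6 of them belong to clade B. SERPINA4, SERPINB13 and SERPINI2 were listed at 0 in all libraries.

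With metformin many liver-made clotting proteins and their inhibitors had less transcript, whereas tissue factor, factor V, urokinase and the urokinase receptor had more. Of the 45 genes tested on log2(FPKM + 1) with limma, with the preparation as a block, 23 fell (51.1%) and 4 rose (8.89%) at an adjusted p under 0.05. Of all 13141 genes tested, 24.1% fell, 19.8% rose and 43.9% changed in either direction. The median log2 change was -0.58 over the 45 genes and -0.04 over all genes. The 4 that rose were F3, F5, PLAU and PLAUR. Falls of at least 2-fold were called for 8 of the 45 (17.8%), against 5.48% of all genes, and rises of at least 2-fold for 2 (4.44%, against 4.42%). The counts rest on the pairing of libraries within preparations. Without the block, 7 of the 45 genes fell and 2 rose, against 1246 falls and 1272 rises among all 13141 genes. The summed hepatocyte markers given above were lower with metformin in each preparation, and their part in the falls was not tested.

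**Figure D1:**
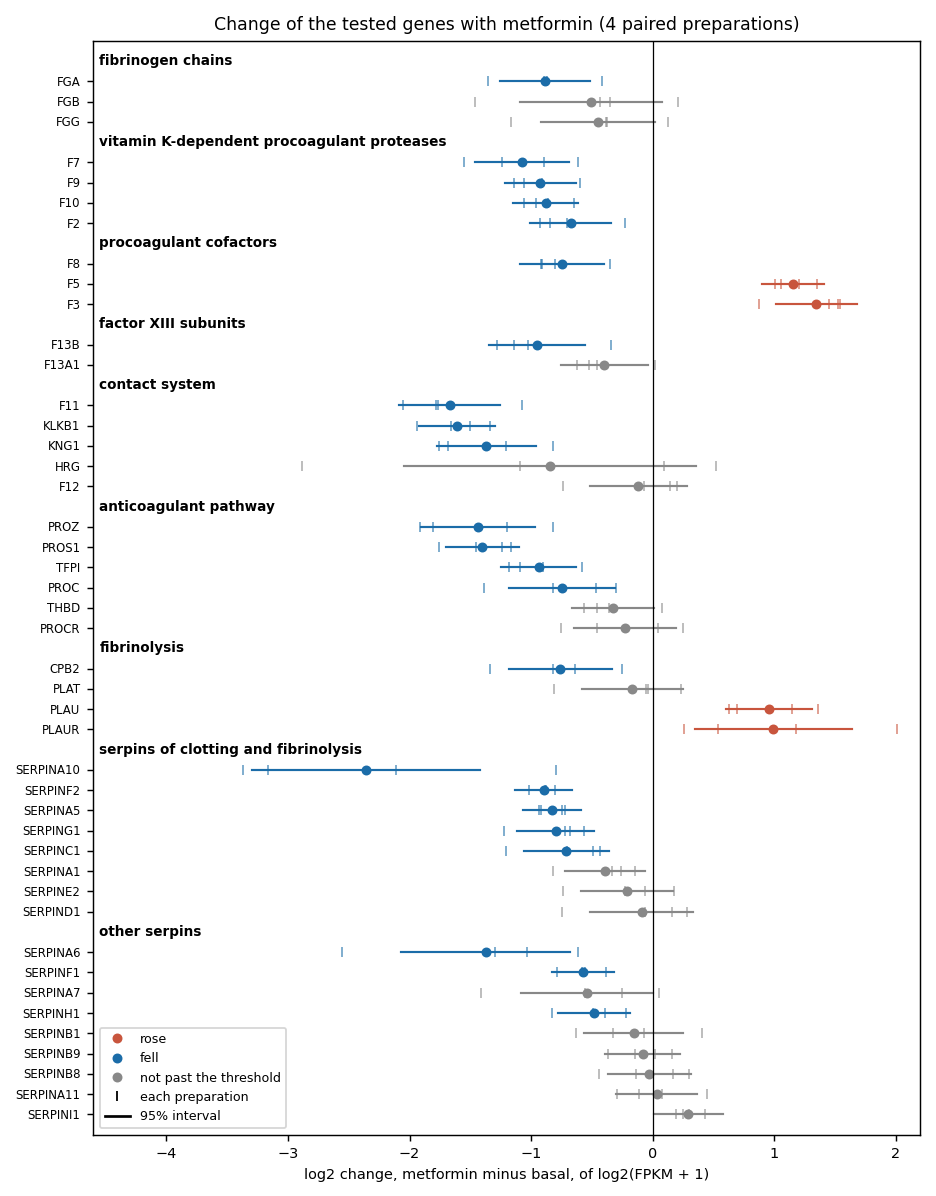
Log2 change with metformin (x axis, metformin minus basal on the log2(FPKM + 1) scale) of the tested genes reported here, grouped by role. Dots are the limma estimates, lines their 95% intervals and ticks the 4 preparations. The intervals of F3 and F5 lie above 0, and SERPINA10 has the lowest estimate, -2.36.

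Levels differed widely between preparations before any treatment. The highest basal library exceeded the lowest by a median of 3.80-fold over the 45 genes, against 1.65-fold over all genes tested. For 29 of the 45 genes (64.4%) preparations 1 and 2 held the highest basal values, an order found in 16.7% of all genes. For 10 genes (22.2%) preparations 3 and 4 were highest, against 35.9% of all genes. The first set holds nearly all plasma clotting factors and their liver serpins. The second holds F8, PLAT, PLAU, PLAUR, PROCR, SERPINB9, SERPINE2, SERPINH1, TFPI and THBD. The summed hepatocyte markers given above had the same order as the first set. Cholangiocyte markers, most of whose FPKM was SPP1, had that of the second, with sums of 1398, 2380.5, 6549 and 8748 FPKM in basal preparations 1 to 4. So did platelet and megakaryocyte markers, which were low (4.71, 2.41, 10.8 and 5.49 FPKM). Neither order was that of the other lists, whose basal sums were highest in preparations 1 and 3. Endothelial markers summed to 440, 154, 543 and 332 FPKM, those of stellate cells and fibroblasts to 6012, 4943, 7200.4 and 5544. Macrophage markers summed to 2635, 1371, 2809 and 1634 FPKM. The part of any of these lists in the orders was not tested. Metformin libraries lay below all basal libraries for only 7 genes (15.6%, against 12.6% of all genes) and above them for 3 (6.67%, against 13.3%).

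**Figure D2:**
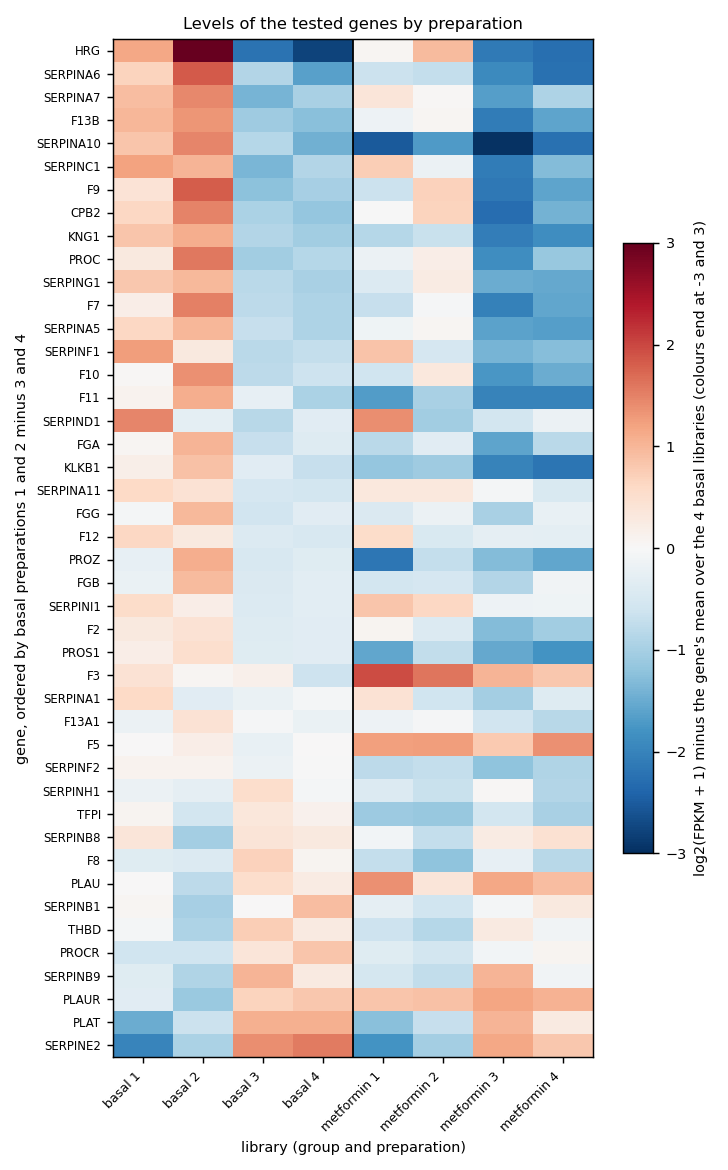
Level of each tested gene reported here (rows) in each library (columns), as log2(FPKM + 1) minus that gene's mean over the 4 basal libraries. Rows are ordered by the difference between basal preparations 1 and 2 and preparations 3 and 4. Most liver-made clotting genes are red in basal preparations 1 and 2 and blue in 3 and 4.

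Fibrinogen, the soluble precursor of the clot, is built from 3 chains encoded by FGA, FGB and FGG. FGA was 1275, 2473, 762 and 933 FPKM in basal preparations 1 to 4 and 698, 967, 409 and 699 with metformin. It fell in all 4 preparations (log2 change -0.88 ± 0.16, SE, adjusted p = 0.00533), although the groups overlapped. FGB was 1107, 2463, 934 and 1019 FPKM in the basal and 869, 894, 693 and 1176 in the metformin libraries. FGG was 802, 1638, 553 and 651 FPKM in the basal and 616, 731, 423 and 709.5 in the metformin libraries. Both were lower in preparations 1, 2 and 3 and higher in preparation 4, and neither passed the test. The log2 change was -0.51 for FGB (95% interval -1.09 to 0.07, adjusted p = 0.131) and -0.45 for FGG (-0.92 to 0.02, adjusted p = 0.103). When preparation 2 was left out, these became -0.19 and -0.21. Preparation 2 was the highest of the basal libraries for every chain. The ratio of FGG to FGB lay between 0.592 and 0.818 in all 8 libraries.

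The proteases of the cascade that need vitamin K all fell. They are prothrombin (F2), factor VII (F7), which binds tissue factor, and factors IX (F9) and X (F10), which act next in the chain. F2 was 218, 238, 135 and 139 FPKM in basal preparations 1 to 4 and 186, 132, 70.7 and 84.8 with metformin (log2 change -0.68 ± 0.14, adjusted p = 0.00907). F7 went from 43.1, 109, 21.4 and 19.1 FPKM to 22.7, 36.6, 8.51 and 12.2 in the same order (-1.08 ± 0.17, adjusted p = 0.00335). Each metformin library was below the basal library of its preparation for both genes, yet the groups overlapped, since basal preparations 3 and 4 lay below metformin preparation 2 for F7 and below metformin preparation 1 for F2. Mean F9 fell to 27.1 ± 25.3 from 57.1 ± 58.4 FPKM (SD over 4 libraries), and F10 from 29.6 ± 23.6 to 15.1 ± 10.9, with log2 changes of -0.93 and -0.88.

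Protein C, protein S and protein Z, encoded by PROC, PROS1 and PROZ, use the same vitamin K-dependent modification and act against clotting. PROS1, the cofactor of activated protein C, was 335, 411, 226 and 231 FPKM in the basal and 98.4, 174, 101 and 84.0 in the metformin libraries. All metformin values lay below all basal values (-1.40 ± 0.13, adjusted p = 0.000897). PROZ, the cofactor for an inhibitor of factor X, was 15.9, 41.6, 13.4 and 14.5 FPKM in the basal and 3.47, 11.2, 7.18 and 5.76 in the metformin libraries, again without overlap (-1.44 ± 0.20, adjusted p = 0.00233). PROC, a protease that inactivates clotting cofactors, was 76.3, 189.6, 29.9 and 34.2 FPKM in the basal and 54.9, 71.7, 16.5 and 27.6 in the metformin libraries (-0.74 ± 0.18, adjusted p = 0.0171). It fell in each preparation, but its groups overlapped, and the call ended when preparation 3 was left out (adjusted p = 0.0516) and with no filter on low values (0.0535). Altogether 7 of 7 vitamin K-dependent genes in the set fell, against 24.1% of all genes, with log2 changes from -1.44 to -0.68.

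The enzyme that carries out this modification, gamma-glutamyl carboxylase (GGCX), is no member of the set but was listed among genes of the vitamin K cycle and of factor secretion. GGCX was 69.7, 70.7, 62.0 and 54.4 FPKM in basal preparations 1 to 4 and 15.8, 16.6, 23.5 and 14.9 with metformin. The groups lay far apart (-1.82 ± 0.14, adjusted p = 0.000701), and its basal values differed little between preparations. LMAN1 and MCFD2, which together carry factors V and VIII from the endoplasmic reticulum to the Golgi, fell as well, from 63.5 ± 9.41 to 34.3 ± 4.23 FPKM and from 109 ± 25.0 to 73.7 ± 7.90. This list named 9 genes, of which 7 were found by symbol and 6 were tested. VKORC1 and VKORC1L1, which it also named, were not tested. Of the 6 genes tested, 3 fell and 0 rose, against 24.1% and 19.8% of all genes. FURIN, a protease that trims precursors, had a log2 change of -0.16 and did not pass (adjusted p = 0.293).

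**Figure D3:**
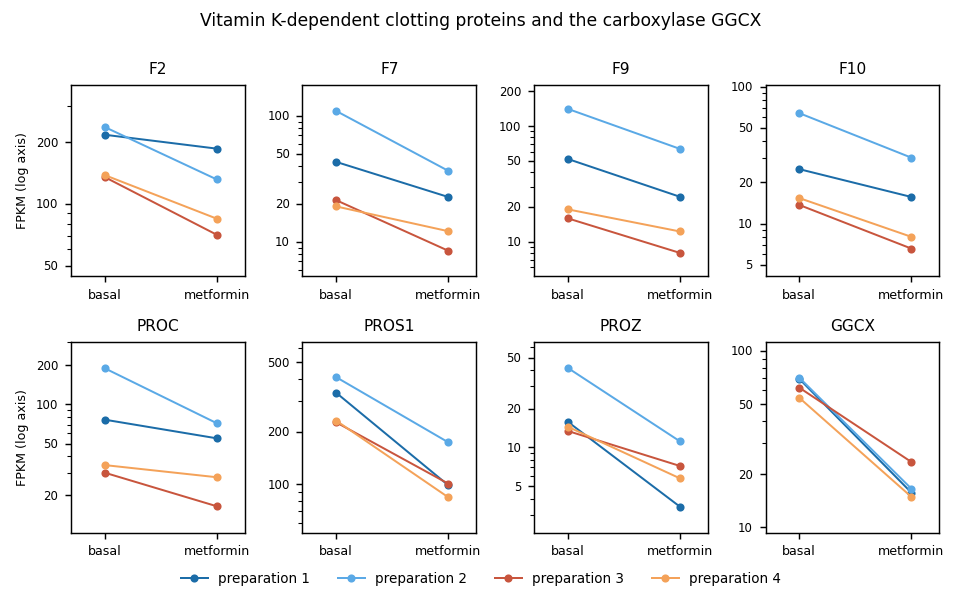
FPKM (y axis, log scale) of the 7 vitamin K-dependent genes and of GGCX in basal and metformin libraries, with a line for each preparation. Every line slopes down, and GGCX starts between 54.4 and 70.7 FPKM in all 4 preparations while the others are spread out.

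Cofactors, which carry no protease activity of their own, moved in opposite directions. Tissue factor (F3), the membrane receptor of factor VII, was 42.4, 32.6, 34.8 and 19.8 FPKM in basal preparations 1 to 4 and 124, 96.6, 64.5 and 55.8 with metformin. It rose in every preparation without overlap of the groups (1.35 ± 0.14, adjusted p = 0.0012). Factor V (F5), the cofactor of factor X, was 65.9, 74.8, 55.3 and 65.3 FPKM in the basal and 153, 156, 112 and 168 in the metformin libraries. Its groups did not overlap either (1.15 ± 0.11, adjusted p = 0.000938), and its basal values spread by 1.35-fold, among the narrowest of the set. Factor VIII (F8), the cofactor of factor IX and a product of endothelial cells, was low, and fell from 3.73 ± 1.78 to 1.76 ± 0.783 FPKM (-0.75 ± 0.15, adjusted p = 0.00752). With a pseudocount of 5 its log2 change was -0.35. Of 15 endothelial markers tested, 8 fell, 0 rose and 7 did not pass. Among all genes 24.1% fell and 19.8% rose. The summed FPKM of the endothelial markers was 115 to 422 with metformin, and their part in the change of F8 was not tested.

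Tissue factor pathway inhibitor (TFPI) shuts down the complex of tissue factor and factor VII. TFPI was 78.4, 49.8, 93.6 and 80.6 FPKM in the basal and 34.0, 33.0, 49.7 and 37.2 in the metformin libraries. It fell without overlap (-0.94 ± 0.13, adjusted p = 0.00233), in the opposite direction to F3. The ratio of F3 to TFPI within a library does not depend on how libraries are scaled. It was 0.541, 0.654, 0.372 and 0.246 in basal preparations 1 to 4 and 3.64, 2.93, 1.30 and 1.50 with metformin, 3.49 to 6.73 times the basal ratio of its preparation. This ratio was chosen after the values were seen and was not tested. The endothelial receptors of the protein C pathway gave no call: the log2 change of thrombomodulin (THBD) was -0.33 (95% interval -0.66 to 0.01, adjusted p = 0.1) and that of the protein C receptor (PROCR) was -0.23 (-0.65 to 0.19, adjusted p = 0.324).

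**Figure D4:**
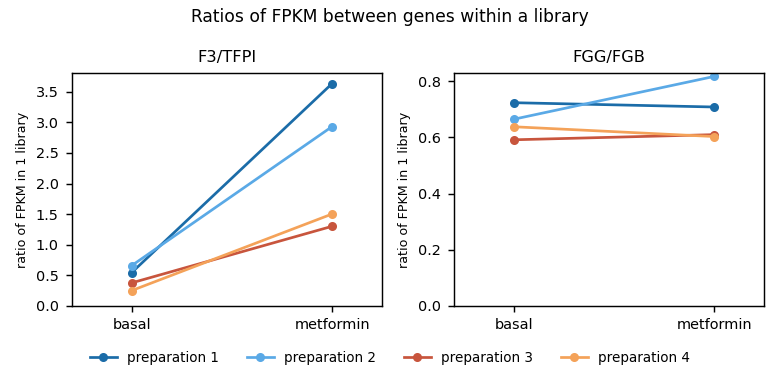
Ratio of FPKM between F3 and TFPI, and between the fibrinogen chains FGG and FGB, within a library (y axes, from 0) in basal and metformin libraries, with a line for each preparation. F3 over TFPI is higher with metformin in all 4 preparations and ends between 1.30 and 3.64, and FGG over FGB stays between 0.592 and 0.818.

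**Figure D5:**
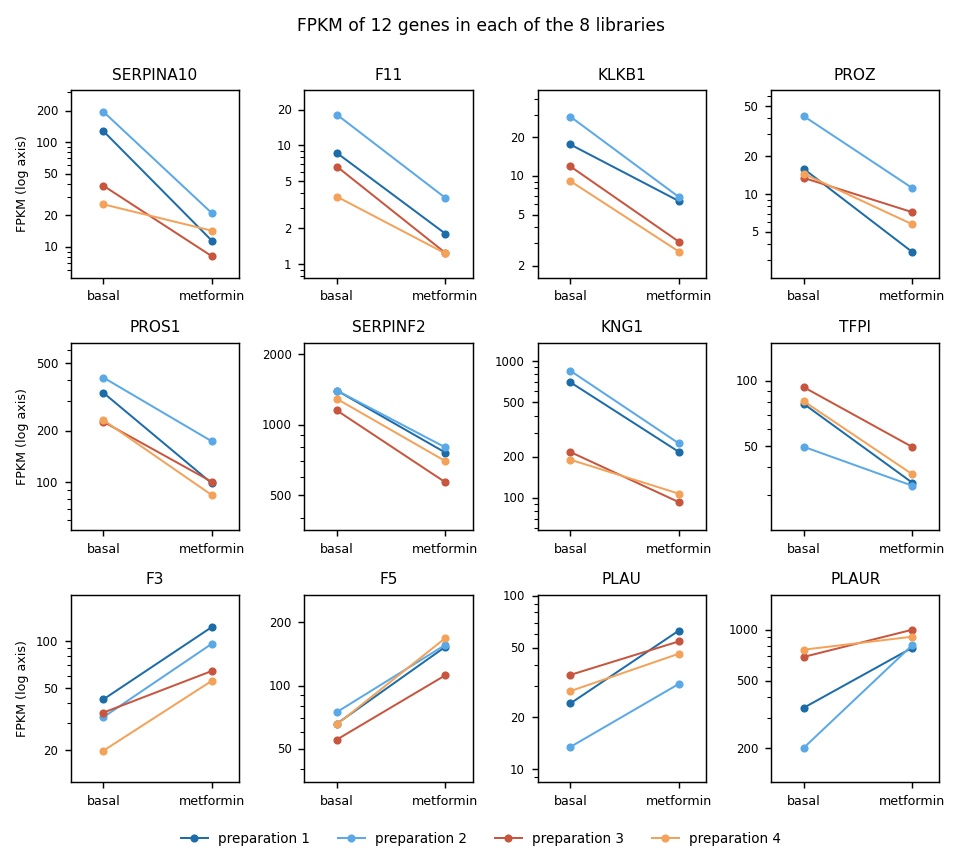
FPKM (y axis, log scale) of 12 genes in basal and metformin libraries, with a line for each preparation. Lines of F3, F5, PLAU and PLAUR rise in all 4 preparations, and those of the other 8 genes fall in all 4.

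The contact system, which starts clotting on charged surfaces and releases bradykinin, held some of the largest falls. Factor XI (F11), a protease that activates factor IX, was 8.64, 18.1, 6.63 and 3.70 FPKM in the basal and 1.80, 3.61, 1.24 and 1.23 in the metformin libraries (-1.67 ± 0.18, adjusted p = 0.00121). Plasma prekallikrein (KLKB1), its close relative, was 17.6, 29.0, 11.9 and 9.12 FPKM in the basal and 6.37, 6.85, 3.07 and 2.58 in the metformin libraries (-1.61 ± 0.13, adjusted p = 0.000701). Neither gene's groups overlapped. F11 is low, and its log2 change was -0.95 with a pseudocount of 5. Kininogen (KNG1), which carries both proteins in plasma and is the source of bradykinin, was 701, 851, 217 and 190.4 FPKM in the basal and 217, 250.4, 93.2 and 107 in the metformin libraries. It fell in each preparation (-1.37 ± 0.17, adjusted p = 0.0018), and metformin preparations 1 and 2 ended near basal preparations 3 and 4.

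Factor XII (F12), the first protease of the contact system, did not move with them. Its log2 change was -0.12 (95% interval -0.52 to 0.28, adjusted p = 0.594), and it was lower in 2 preparations and higher in the other two. Histidine-rich glycoprotein (HRG) varied most between preparations of the 45 genes. It was 267, 1698, 24.7 and 16.5 FPKM in the basal and 125, 229, 26.4 and 24.1 in the metformin libraries, a basal spread of 103-fold. It was lower with metformin in preparations 1 and 2 and higher in preparations 3 and 4, and it did not pass (-0.84, 95% interval -2.04 to 0.36, adjusted p = 0.211). Preparation 2 carried most of that value, which was -0.16 without it and -1.29 without preparation 4. Of the factor XIII subunits, which belong to the enzyme that cross-links fibrin, the carrier F13B fell from 68.4 ± 54.6 to 31.1 ± 20.6 FPKM (adjusted p = 0.00511). The catalytic F13A1, made by macrophages and platelets, went from 2.50 ± 0.763 to 1.68 ± 0.653 FPKM and did not pass (adjusted p = 0.0706). Of 10 macrophage markers tested, 6 fell and 1 rose, against 24.1% and 19.8% of all genes. Their summed FPKM was lower with metformin in preparations 1 (2635 to 2294) and 3 (2809 to 2534). That sum was higher in preparations 2 (1371 to 1460.0) and 4 (1634 to 1842). The part of these markers in the values of F13A1 was not tested.

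On the side of clot dissolution, urokinase and its receptor rose. Urokinase (PLAU), a plasminogen activator, was 23.9, 13.4, 35.0 and 28.2 FPKM in basal preparations 1 to 4 and 62.9, 31.0, 54.5 and 46.3 with metformin (0.96 ± 0.15, adjusted p = 0.00356). Each preparation rose, and the groups overlapped because metformin preparation 2 stayed below basal preparation 3. Its receptor PLAUR was 346, 201, 691 and 762 FPKM in the basal and 782, 810.0, 999 and 909 in the metformin libraries. The metformin values lay close together above all basal values, and preparations 1 and 2, which started low, rose most (0.99 ± 0.27, adjusted p = 0.0243). The call of PLAUR ended without preparation 1 (adjusted p = 0.0681) and with no filter on low values (adjusted p = 0.0797), and its log2 change was 0.65 without preparation 2.

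Tissue-type plasminogen activator (PLAT) followed the preparation more than the treatment. It was 37.6, 68.6, 225 and 227 FPKM in the basal and 44.4, 66.0, 219.5 and 129 in the metformin libraries (-0.17, 95% interval -0.58 to 0.25, adjusted p = 0.462). CPB2, a carboxypeptidase that slows fibrinolysis, fell from 20.0 ± 17.6 to 11.5 ± 10.0 FPKM (adjusted p = 0.0142). That call ended when preparation 2 was left out (adjusted p = 0.0534) and with no filter on low values (0.0503).

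Of the 9 serpins grouped here with clotting and fibrinolysis, 5 fell, 0 rose and 4 did not pass. Among all genes 24.1% fell and 19.8% rose. SERPINA1, alpha-1-antitrypsin, had the highest level of the set and held 0.951% to 1.63% of all FPKM of a basal library. It was 18622, 9744, 10752 and 11956 FPKM in the basal and 16804, 8143, 6086 and 9461 in the metformin libraries, lower in each preparation but not past the threshold (-0.39 ± 0.14, adjusted p = 0.056). Its adjusted p was 0.0342 among genes with a mean FPKM of at least 5 and 0.353 with no filter on low values, and its log2 change was -0.25 without preparation 3. After SERPINA1 the highest basal levels were those of FGB, FGA, SERPINF2 and FGG, with means of 1381, 1361, 1309.7 and 911 FPKM. Their ranges over the preparations overlapped, though FGG was below FGB and FGA in each basal library.

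SERPINA10, the protein Z-dependent inhibitor of factor X, had the largest fall of the 45 genes. It was 127, 195, 38.3 and 25.5 FPKM in basal preparations 1 to 4 and 11.4, 21.0, 8.13 and 14.3 with metformin. The groups did not overlap, and the log2 change was -2.36 ± 0.40 (adjusted p = 0.00447), the 43rd largest fall among the 13141 genes. The log2 change was -3.37 and -3.16 in preparations 1 and 2 and -0.80 in preparation 4. SERPINF2, alpha-2-antiplasmin, the main plasma inhibitor of plasmin, was 1399.7, 1399.7, 1150.2 and 1289 FPKM in the basal and 759, 799, 567 and 698 in the metformin libraries. Its values were the closest between preparations of the set, with a basal spread of 1.22-fold, and it fell without overlap (-0.90 ± 0.10, adjusted p = 0.00131).

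Antithrombin (SERPINC1), the chief inhibitor of thrombin, was 628, 550.3, 103 and 147 FPKM in the basal and 447, 237, 62.6 and 109 in the metformin libraries. It fell in each preparation, by less than basal preparations 1 and 2 differed from 3 and 4 (-0.71 ± 0.15, adjusted p = 0.00956). SERPINA5, the protein C inhibitor, fell from 460.0 ± 283 to 256 ± 152 FPKM and SERPING1, the C1 inhibitor, which also restrains the contact system, from 318 ± 204 to 174 ± 106, with log2 changes of -0.83 and -0.80. Heparin cofactor II (SERPIND1) went from 68.1 ± 57.1 to 64.9 ± 55.3 FPKM and did not pass (-0.09, 95% interval -0.51 to 0.33). SERPINE2, protease nexin 1, did not pass either (-0.21, -0.59 to 0.16), and its basal values of 10.9, 23.1, 121 and 136 FPKM were highest in preparations 3 and 4, as those of PLAT were.

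Of the serpins with other roles, 9 were tested, of which 3 fell and 0 rose, against 24.1% and 19.8% of all genes. Corticosteroid-binding globulin (SERPINA6), which carries cortisol in plasma, was 16.8, 39.3, 5.19 and 2.68 FPKM in the basal and 6.26, 5.86, 2.03 and 1.40 in the metformin libraries (-1.37 ± 0.29, adjusted p = 0.0101). It fell in each preparation, with overlapping groups. The other hormone carrier, thyroxine-binding globulin (SERPINA7), was lower in 3 of 4 preparations and did not pass (-0.54, 95% interval -1.09 to 0.00, adjusted p = 0.0946), with a log2 change of -0.25 without preparation 2. SERPINF1, which encodes pigment epithelium-derived factor, fell from 267 ± 189.6 to 186 ± 152 FPKM (adjusted p = 0.00648).

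SERPINH1, a collagen chaperone of the endoplasmic reticulum, was 473, 444, 772 and 520.4 FPKM in the basal and 407, 337, 549 and 292 in the metformin libraries. It fell in each preparation (-0.48 ± 0.13, adjusted p = 0.0208), but the call ended when preparation 3 (adjusted p = 0.0607) or preparation 4 (0.0751) was left out. Most markers of stellate cells and fibroblasts fell as well, against 24.1% of all genes. Of 12 tested, 9 fell and 1 rose, COL1A1 from 402 ± 155 to 249 ± 74.4 FPKM, and their part in the fall of SERPINH1 was not tested. Vimentin (VIM), the gene of that list that rose, made up most of its summed FPKM with metformin. That sum was higher with metformin in preparations 1 (6012 to 6629) and 2 (4943 to 6177). It was lower in preparations 3 (7200.4 to 6121) and 4 (5544 to 5417). The intracellular serpins SERPINB1, SERPINB8 and SERPINB9 and the liver serpin SERPINA11 had log2 changes of -0.16, -0.03, -0.08 and 0.03, and each moved in both directions among the preparations. SERPINI1, neuroserpin, was higher in 4 of 4 preparations at 2.41 ± 1.08 and 3.22 ± 1.48 FPKM and did not pass (adjusted p = 0.0885), but did after quantile normalization (adjusted p = 0.0129).

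Genes around the set were counted in lists as well, to be read beside the 24.1% of all genes that fell and the 19.8% that rose. Of 14 tested genes of plasma carriers and other regulators, 8 fell and 1 rose. HABP2, a protease that can activate urokinase and factor VII, fell from 261 ± 167 to 93.0 ± 67.0 FPKM. The asialoglycoprotein receptor subunits ASGR1 and ASGR2, which clear desialylated plasma proteins, fell from 60.1 ± 17.3 to 23.7 ± 10.0 and from 194 ± 37.4 to 99.5 ± 12.8. C4BPB, whose product links protein S to the C4b-binding protein, had a log2 change of -1.80 ± 0.23 (adjusted p = 0.00183), whereas the alpha chain gene C4BPA was at 413 ± 108 and 412 ± 104 FPKM (adjusted p = 0.984). TFPI2, a relative of TFPI that inhibits plasmin, rose from 46.5 ± 18.3 to 70.3 ± 38.4 (adjusted p = 0.0233). Of 11 tested cell-surface genes of thrombin and plasmin biology, 3 rose and 1 fell. The transglutaminase TGM2 rose from 42.7 ± 18.1 to 118 ± 54.7 FPKM, the plasminogen receptor PLGRKT from 69.0 ± 22.3 to 99.7 ± 17.8 and the thrombin receptor family member F2RL2 from 52.3 ± 23.8 to 66.7 ± 21.5, while the thrombin receptor F2R fell from 16.1 ± 7.05 to 10.8 ± 4.83.

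Some of these genes lie close together in the genome. In the RefSeq gene order of a later sheep assembly (ARS-UI_Ramb_v3.0), 46 of the 55 genes were found by symbol, and 19 lay within 3 protein-coding genes of another member, in 8 groups. F7, F10 and PROZ form such a group, and all 3 fell. FGA, FGB and FGG form another, in which FGA alone passed the test. SERPINA10 and SERPINA1, of which the first had the largest fall and the second did not pass, form a group as well. So do KNG1, which fell, and HRG, which did not pass.

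The authors' deposited table gives a q-value for 36 of the 45 tested genes. Of these q-values in the authors' deposited table, 18 were under 0.05, and all 18 genes passed here in the limma fit. Another 8 passed here with a q-value of 0.05 or more in the authors' deposited table: F2, SERPINC1, SERPINA10, SERPINH1, CPB2, SERPINA6, PROC and PLAUR, with q-values from 0.0516 for F2 to 0.116 for PLAUR. F8 passed here and had no q-value in the authors' deposited table.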

How the data were processed

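Polyadenylated RNA of 4 basal and 4 metformin libraries was measured. The authors deposited FPKM per gene and library, made with Cufflinks on Oar_v3.1 per the submitters' processing notes; no source used here names the aligner or annotation release. The authors' deposited table also holds group means, a signed fold change (a score), p-values and q-values. A placeholder in 4 cells was treated as missing; no clotting gene or serpin held it.

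Genes that reached 1 FPKM in 4 or more libraries were tested on log2(FPKM + 1), which understates changes of low genes, with limma 3.58.1 in R 4.3.3 (preparation as block, mean-variance trend, 2-sided, Benjamini-Hochberg over all 13141 genes, threshold 0.05). Standard errors come from variances drawn towards those of other genes (prior df 4). The fit was tested on simulated data. Pairing comes from the preparation numbers in the labels. Deviations from group means correlated within preparations (r from 0.489 to 0.585). Between preparations r ran from -0.351 to 0.0179, where subtracting the group mean by itself favours negative values. P-values set the mean change within preparations against the spread of that change between preparations. FPKM carries no read depth, so no counting interval is given, and no source used here says how reads shared by related serpins were split.

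The members and lists were chosen with earlier results of these data known. Values in every library are given for the 8 largest falls, the 4 rises, the fibrinogen chains and a fixed set of central genes, whatever their values. Some genes that the counts include are not reported here by name. TFPI, HRG, GGCX, HNF4A and PROX1 are also given in every library, a choice made after their values were seen. Of genes in the lists of other pathway genes and transcription factors, the 3 with the lowest p past the threshold were named, and marker lists are given by counts and sums. SPP1, FURIN, C4BPA, C4BPB, TFPI2, F2R, COL1A1, VIM and CEBPA were chosen after their values were seen. Alternatives were other pseudocounts (0.1 and 5), filters (none, or a mean FPKM of at least 5) and scalings (median of ratios, quantile normalization), no trend, no block and each preparation left out.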

Additional observations from a re-analysis of the deposited data

Results flagged for a closer look

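Among 45 genes and 3 measures each (basal FPKM, metformin FPKM and the paired log2 change), 7 of 135 sets of 4 values held a preparation far from the other three by Dixon's ratio. Chance gives about 5% of such sets. In basal libraries preparation 2 was far above the others for FGB (2463 FPKM), HRG (1698 FPKM) and PROZ (41.6 FPKM) and far below them for SERPINB8 (19.6 FPKM). Basal SERPIND1 was far higher in preparation 1, at 153.2 FPKM, and F12 stood out in the metformin library of preparation 1, at 44.2 FPKM. The paired log2 change of F3 was lowest in preparation 3, at 0.87, against 1.45 to 1.54 in the others.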

How the results depend on the processing

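Of the 27 calls, 23 held under every alternative that gave a value other than the fit without the block; the exceptions, CPB2, PROC, PLAUR and SERPINH1, are given above. No replicate block left 2 of the genes rising and 7 falling, and 1272 rises and 1246 falls among all genes. Those 9 are F3, F5, F11, KLKB1, PROS1, PROZ, TFPI, SERPINA10 and SERPINF2, and the groups of all 9 did not overlap. The labels' preparation numbers, not these counts, decided the pairing. Leaving out a preparation gave 3 to 4 rises and 21 to 23 falls in the set, and 1679 to 2307 rises and 1995 to 2923 falls among all genes. The sign of some uncalled genes reversed: the log2 change was 0.0076 for SERPINB8 with the median of ratios, and -0.017 for SERPINA11 and 0.11 for SERPINB9 with quantile normalization. On leaving out a preparation, it ranged from -0.223 to 0.087 for F12, -0.30 to 0.048 for PLAT, -0.11 to 0.14 for SERPINA11, -0.344 to 0.0023 for SERPINB1, -0.138 to 0.11 for SERPINB8, -0.165 to 0.011 for SERPINB9 and -0.217 to 0.13 for SERPIND1. The cause was not tested. F8, F13A1 and SERPINI1 gave no value at a mean FPKM of at least 5. With 4 preparations and no read depth, small changes of low genes could not be resolved.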

Other observations

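Transcription factors of the liver, listed beside the clotting genes because several are known to act on their promoters, changed in both directions. Of 13 tested, 8 fell and 2 rose, against 24.1% and 19.8% of all genes. HNF4A was 56.3, 84.2, 34.1 and 45.1 FPKM in basal preparations 1 to 4 and 9.68, 17.1, 11.6 and 8.57 with metformin (log2 change -2.10 ± 0.17, adjusted p = 0.000701). PROX1 was 33.2, 48.3, 17.7 and 20.3 FPKM in the basal and 5.40, 12.6, 4.88 and 5.73 in the metformin libraries (-1.90 ± 0.15, adjusted p = 0.000701). CEBPB rose to 219 ± 56.8 from 127 ± 23.2 FPKM (SD over 4 libraries, adjusted p = 0.00197), while CEBPA (log2 change -0.16) did not pass. Basal HNF4A and PROX1 were higher in preparations 1 and 2 than in 3 and 4, as the plasma clotting factors were.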
